A study of Mus musculus with 43 samples.

Results

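The fasting response of the arcuate nucleus (ARC) was read from 9 of the 43 samples of the series, namely every ARC sample whose label matched a column of expression values: 4 from mice fasted for 24 hours and 5 from mice fed ad libitum. All mice were adult males of the C57/BL6 strain, and all of them, fed controls included, carried the paternal Snord116 deletion, a germline loss of a cluster of small nucleolar RNAs from the imprinted Prader-Willi syndrome region. Wild-type mice were not analysed here, so every change is that of Snord116 deletion mice. Each library was made from 1 nucleus cut out of frozen brain sections by laser capture, and an amplification kit for small amounts of RNA (Ovation, version 2) was used before sequencing. Libraries are named by their mouse number. The fasted ones were ARC-86 (batch 1), ARC-100 (batch 2), ARC-305 and ARC-311 (both batch 3), and the fed ones ARC-111 (batch 1), ARC-125 and ARC-127 (both batch 2), ARC-308 and ARC-313 (both batch 3). Where the values of a gene are listed below, they follow this order.

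The ARC lies at the base of the third ventricle, where blood-borne signals reach neurons with ease. One of its neuron populations makes neuropeptide Y (NPY) and agouti-related protein and drives feeding, another makes proopiomelanocortin and restrains it, and both are read by leptin and insulin, whose levels drop when food is withheld. A fast also raises circulating corticosterone, the glucocorticoid of rodents, and lowers body temperature in mice.

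The marker genes placed these libraries in the ARC. Npy ranged from 194.5 to 1226 CPM (read counts scaled to a common library depth) in the 9 ARC libraries and from 0.831 to 33.4 CPM in 32 libraries of the dorsomedial (DMH), paraventricular (PVN) and ventromedial (VMH) hypothalamus. Crabp1, which encodes a retinoic acid binding protein, ranged from 129 to 268 CPM in ARC and reached at most 10.1 CPM elsewhere, and the relaxin receptor gene Rxfp1 ranged from 11.4 to 30.8 CPM against at most 4.80 CPM. Several marker genes of the neighbours were low in ARC: Pmch did not exceed 2.01 CPM, Crh 0.304 CPM and Npvf 0.456 CPM, while Hcrt reached 10.9 CPM. Other such markers separated the nuclei less well: Avp had a median of 2.22 CPM in ARC and 2.34 CPM elsewhere, and the VMH markers Gpr149 and Zfp831 reached 12.7 and 10.99 CPM in ARC, with medians of 5.25 and 1.37 CPM in ARC against 7.80 and 3.998 CPM elsewhere. Agrp and Pomc fall in a range of gene identifiers that was not analysed here. The depth of the ARC libraries, read from the smallest step between their values, was 2.37 to 6.29 M (mega) reads, with a median of 3.42 M in fasted and 4.82 M in fed libraries, and between 137 and 525 of the 10127 genes were listed at 0.

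Of 9654 genes tested, 17 (0.176%) passed an adjusted p of 0.1 between fasted and fed libraries, 10 higher in the fasted ARC (0.104%) and 7 lower (0.0725%). The test was limma on log2(CPM + 0.5) with batch as a covariate, and adjusted p values are by Benjamini and Hochberg over all genes tested. At an unadjusted p under 0.05, 424 genes were higher (4.39%) and 358 lower (3.71%). In 108 genes (1.12%) every fasted library lay above every fed library, and in 98 genes (1.02%) every one lay below. Of the 17 genes, 5 rose and 5 fell without overlap of the groups. The direction of all 17 was the same in each of the 3 batches, as the choice of genes on these same libraries favours. Of all genes tested, 51.7% had a higher and 48.3% a lower value in the fasted ARC, and the median log2 fold change was 0.016. Since CPM values are scaled to a common library depth, a value near 0 says little about the groups.

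**Figure D1:**
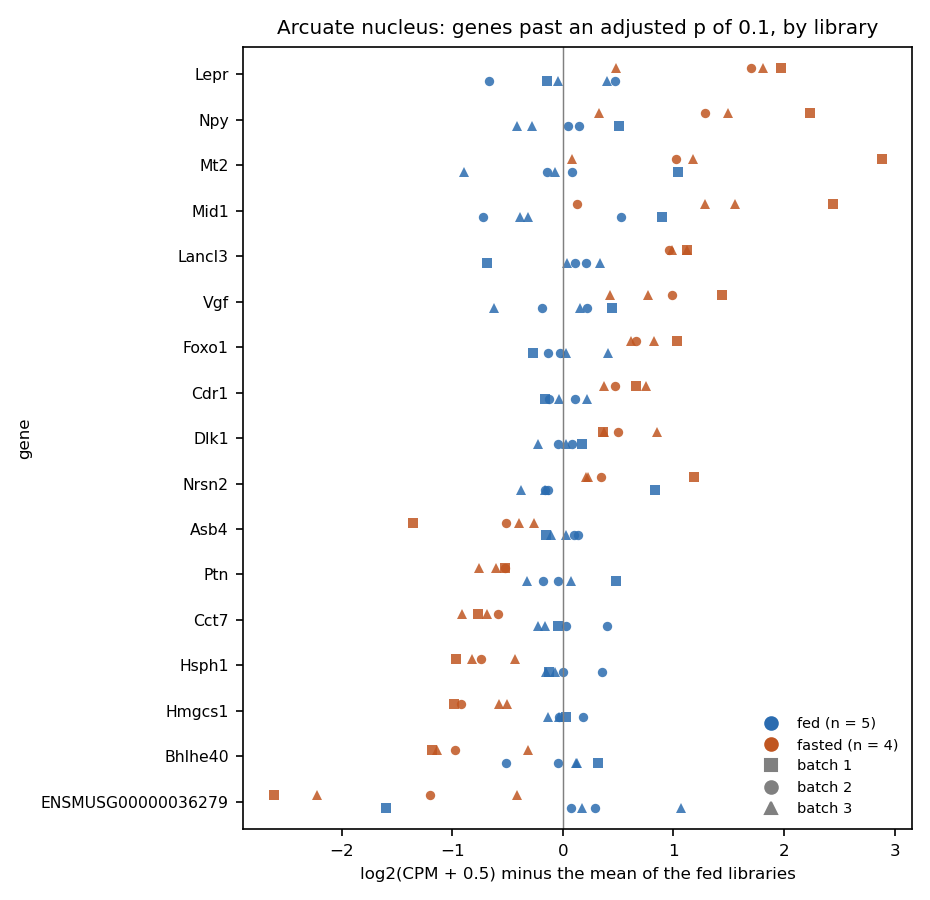
Each of the 17 genes past the threshold (vertical axis) with its value in all 9 ARC libraries, as log2(CPM + 0.5) minus the mean of the 5 fed libraries (horizontal axis). Orange points are the 4 fasted and blue points the 5 fed libraries, and the point shape gives the batch. Fasted and fed points are apart in 10 genes, among them Lancl3, Foxo1, Hmgcs1 and Cct7, while Npy and Mid1 have 1 fasted library and Mt2 has 2 within the range of the fed ones.

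The number of genes called rested on single libraries. It was 3 without fasted ARC-100, 3 without fasted ARC-311 and 3 without fed ARC-308. It was 4 without fed ARC-127, 5 without fasted ARC-86, 5 without fed ARC-111, 10 without fed ARC-313 and 11 without fed ARC-125, and it was 23 without fasted ARC-305. Of the 17 genes, only Npy passed in all 9 of these fits, and no gene changed direction in any of them. Each state has 1 batch 1 library and batch is a covariate. Leaving out ARC-86, ARC-111 or both therefore gives the same log2 fold change, so these fits are not separate checks. The share of fits passed is given below beside each gene.

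Among genes of feeding peptides and their receptors, Npy and Lepr rose and Asb4 fell, where 0.104% of all genes were called higher and 0.0725% lower. NPY is the peptide that the feeding-promoting neurons release. Npy (chr6:49822710-49829507, + strand, GRCm38 as are all positions of genes) was at 1226, 636, 326 and 732 CPM in fasted libraries and at 370, 288, 269, 195 and 214 CPM in fed libraries. Fasted ARC-305 lay below fed ARC-111, and the other fasted libraries lay above every fed one. The log2 fold change was 1.35 ± 0.16 (SE, n = 4 and 5), a 2.54-fold rise (adjusted p = 0.0011), and it was 1.73, 1.19 and 1.26 within batches 1, 2 and 3. With any 1 library left out its adjusted p stayed at or below 0.022, but it was 0.314 without the batch covariate, 0.552 without a trend in eBayes and 0.557 in the fit of all nuclei, with log2 fold changes from 1.32 to 1.35. In captured tissue, more cells of a type and more RNA per cell cannot be told apart, here or in the results that follow.

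Lepr (chr4:101717404-101815352, + strand) encodes the leptin receptor, through which leptin holds back transcription of the NPY gene. Lepr was at 91.5, 75.5, 32.2 and 81.7 CPM in fasted libraries and at 20.7, 14.2, 31.9, 22.2 and 30.3 CPM in fed libraries. Every fasted library lay above every fed one, ARC-305 by a small margin. Its log2 fold change of 1.49 ± 0.31 (SE) was a 2.81-fold rise (adjusted p = 0.087). It passed in 2 of 9 fits with 1 library left out, and its adjusted p rose to 0.370 without fasted ARC-100.

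Asb4 (chr6:5383386-5433022, + strand) encodes an ankyrin repeat protein with a SOCS box, is imprinted and is made in arcuate neurons. It was at 166, 297, 354 and 324 CPM in fasted and at 383, 456, 467, 394 and 435 CPM in fed libraries, with no overlap. The log2 fold change was −0.61 ± 0.13 (SE; adjusted p = 0.087) and passed in 1 of 9 fits with 1 library left out (adjusted p = 0.417 without fed ARC-111).

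The feeding list had 21 genes tested, 9 with a higher and 12 with a lower value in the fasted ARC, and its median log2 fold change was −0.08 beside 0.016 over all genes. Without both batch 1 libraries 12 were higher and 9 lower (median 0.05). Leaving out fasted ARC-86 alone gives the same median by design, since each state has 1 batch 1 library. Under an unadjusted p of 0.05 were 3 higher members, where 4.39% of all genes were, and 2 lower ones, where 3.71% were. Beside the genes above these were Ghsr and Npy1r. Ghsr, the ghrelin receptor gene, was at 59.0, 53.9, 24.0 and 71.2 CPM in fasted and at 11.8, 25.9, 32.2, 44.0 and 27.8 CPM in fed libraries (log2 difference 0.91 ± 0.34 SE, adjusted p = 0.513). It was 0.50 without fasted ARC-86 or without fed ARC-111, and 1.31 without fasted ARC-305, where it passed the threshold (adjusted p = 0.088). Npy1r, which encodes a receptor for NPY, had a log2 difference of −0.46 ± 0.19 (SE; adjusted p = 0.570), and of −0.26 without fasted ARC-100. The groups overlapped in both.

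In leptin and insulin signalling 1 of 20 genes tested rose, where 0.104% of all genes did, and none fell, where 0.0725% did. Of the 20, 12 had a higher and 8 a lower value. Under an unadjusted p of 0.05 (limma) were 2 higher members, where 4.39% of all genes were, and no lower one. Foxo1 (chr3:52268336-52353221, + strand) encodes a transcription factor that insulin signalling keeps out of the nucleus and that drives transcription of the feeding-promoting peptides. Foxo1 was at 205, 159, 154 and 178 CPM in fasted and at 83.1, 91.0, 98.3, 102 and 133 CPM in fed libraries, with no overlap. Foxo1 changed by 0.76 ± 0.16 on the log2 scale (SE) (adjusted p = 0.087), and within batches 1, 2 and 3 it was 1.30, 0.74 and 0.51. It passed in 2 of 9 fits with 1 library left out, and its adjusted p was 0.360 without fasted ARC-86. Pik3r2, a regulatory subunit gene of phosphoinositide 3-kinase, had a log2 difference of 0.96 ± 0.39 (SE; adjusted p = 0.554). Socs3, whose product is induced by leptin and inhibits its receptor, was low in all libraries, at 0.608, 0.537, 5.08 and 2.41 CPM in fasted and between 2.70 and 5.18 CPM in fed ones (log2 difference −1.20 ± 0.60 SE, adjusted p = 0.615). The median of the list was 0.04, from 0.02 without fed ARC-313 to 0.10 without fasted ARC-305.

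Of the other genes that rose, 7 are in neither of these lists, of which Mt2 is given with the glucocorticoid-responsive genes. Vgf, the precursor of several neurosecretory peptides that act on energy balance, was at 155, 114, 76.7 and 97.8 CPM in fasted and at 78.1, 49.97, 66.6, 36.9 and 63.6 CPM in fed libraries. Only ARC-305 among the fasted libraries lay below the highest fed one, ARC-111. Vgf changed by 0.91 ± 0.19 on the log2 scale (SE; adjusted p = 0.087), and it passed in 2 of 9 fits with 1 library left out (adjusted p = 0.392 without fed ARC-308). Vgf was the 1 called gene among 10 immediate early genes tested, where 0.104% of all genes were called higher. Of the 10, 5 were higher and 5 lower (median −0.04). Without both batch 1 libraries 7 were higher and 3 lower (median 0.16), and with 1 library left out the median ran from −0.22 (without fed ARC-308) to 0.16 (without fed ARC-111).

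Dlk1, an imprinted gene whose membrane protein is related to Notch ligands, was at 772, 847, 777 and 1083 CPM in fasted and at 675, 634, 581, 512 and 612 CPM in fed libraries. The groups did not overlap (log2 fold change 0.52 ± 0.11 SE, adjusted p = 0.087). Dlk1 passed in 3 of 9 fits with 1 library left out, and its adjusted p was 0.447 without fed ARC-308. Lancl3, a member of the lanthionine synthetase C-like family, was at 91.5, 81.6, 91.4 and 83.3 CPM in fasted and at 25.7, 44.9, 48.1, 52.9 and 42.7 CPM in fed libraries. Its fasted values were the closest together of the genes that rose (SD 5.24 CPM), and its log2 fold change was 1.07 ± 0.20 (SE; adjusted p = 0.075). It passed in 2 of 9 such fits, with an adjusted p of 0.32 without fasted ARC-86. Lancl3 overlaps the annotated gene Gm14862 on the other strand, and the use of strand in counting is not stated, so reads of such partners cannot be told apart. The same holds for Nrsn2, Mt2, Hmgcs1, Foxo1, Bhlhe40 and Mid1, which overlap annotated genes on the other strand.

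Cdr1 was at 584, 512, 478 and 623 CPM in fasted and at 330, 399, 339, 362 and 429 CPM in fed libraries, again with no overlap (log2 fold change 0.55 ± 0.11 SE, adjusted p = 0.082). A noncoding transcript, C230004F18Rik, is annotated across it on the other strand, so reads of both may be counted as Cdr1. It passed in 3 of 9 fits with 1 library left out (adjusted p = 0.360 without fasted ARC-86). Mid1, which encodes a microtubule-associated ubiquitin ligase, was at 269, 53.7, 145 and 120 CPM in fasted and at 91.99, 71.0, 29.7, 37.3 and 39.4 CPM in fed libraries. Fasted ARC-100 lay within the fed range, and the log2 fold change was 1.54, 0.22 and 1.77 in the 3 batches (1.24 ± 0.26 SE in the fit, adjusted p = 0.087). It passed in 2 of 9 fits (adjusted p = 0.447 without fed ARC-308).

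Nrsn2, which encodes a small vesicle membrane protein of neurons, was at 1545, 860, 792 and 783 CPM in fasted and at 1209, 606, 617, 522 and 605 CPM in fed libraries. The batch 1 library was the highest in each state. Its rise was 0.35, 0.49 and 0.49 within the batches and 0.46 ± 0.08 (SE) in the fit (adjusted p = 0.033), the smallest of the 17 changes, and it passed in 6 of 9 fits with 1 library left out (adjusted p = 0.269 without fasted ARC-100).

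Genes that respond to glucocorticoids were higher as a group. Of 12 tested, 11 had a higher value in the fasted ARC, where 51.7% of all genes did. Their median log2 fold change was 0.66 beside 0.016 over all genes. The median was 1.02, 0.67 and 0.43 within batches 1, 2 and 3 and 0.54 without both batch 1 libraries. The threshold was passed by 1 member, where 0.104% of all genes were called higher. In all, 5 were under an unadjusted p of 0.05 (limma) in this direction, where 4.39% of all genes were. Mt2 (chr8:94172664-94173568, + strand) encodes a metallothionein, a small protein that binds zinc and copper. It was at 279, 76.2, 39.5 and 84.9 CPM in fasted and at 77.2, 39.5, 33.8, 35.5 and 19.9 CPM in fed libraries. The batch 1 library was the highest in each state, ARC-305 lay at the level of the fed ones and ARC-100 just below fed ARC-111. Its log2 fold change was 1.26 ± 0.24 (SE), a 2.40-fold rise (adjusted p = 0.082), and 0.81 without the least deep fasted and fed libraries. It passed in 3 of 9 fits with 1 library left out (adjusted p = 0.360 without fasted ARC-86).

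The other 4 were Mt1, its neighbour and close relative on chromosome 8, and the transcription factor genes Zbtb16 and Klf9, both known targets of the glucocorticoid receptor, and Errfi1, an inhibitor of epidermal growth factor receptor signalling. Zbtb16 was at 79.7, 40.4, 7.62 and 26.6 CPM in fasted and at 3.80, 20.2, 12.3, 3.73 and 9.53 CPM in fed libraries (log2 difference 1.93 ± 0.49 SE, adjusted p = 0.254). Mt1 was at 108, 67.3, 36.4 and 39.8 CPM in fasted and at 36.3, 37.8, 37.6, 27.0 and 34.0 CPM in fed libraries (0.76 ± 0.23 SE, adjusted p = 0.397). In both genes 3 fasted libraries lay above all fed ones and ARC-305 lay among them. The difference of Zbtb16 was 1.24 without fasted ARC-86 or without fed ARC-111, and 2.38 without fasted ARC-305, where it passed the threshold (adjusted p = 0.058). Without the least deep fasted and fed libraries it was 0.82. Errfi1 was at 67.6 CPM or more in every fasted and at 67.5 CPM or less in every fed library (0.62 ± 0.20 SE, adjusted p = 0.424), and Klf9 differed by 0.70 ± 0.23 (SE, adjusted p = 0.435).

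The promoters of both metallothionein genes are printed because these genes are induced through metal response elements as well as by glucocorticoids. The letters are the 250 bases before the RefSeq transcription start (build GRCm38.p6, + strand, 5′ to 3′), Mt2 at chr8:94172368-94172617 and Mt1 at chr8:94178839-94179088. Capitals mark the metal response element core, as TGCACNC or TGCGCNC on either strand, and in Mt1 also a palindrome of the glucocorticoid response element, GNACA and TGTNC around 3 free bases (NNN).
Mt2: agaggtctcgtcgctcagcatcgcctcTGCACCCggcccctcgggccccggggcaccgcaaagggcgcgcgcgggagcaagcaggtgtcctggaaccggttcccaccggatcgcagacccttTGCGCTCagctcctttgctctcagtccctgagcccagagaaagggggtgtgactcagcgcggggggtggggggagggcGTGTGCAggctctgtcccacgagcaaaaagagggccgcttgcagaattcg
Mt1: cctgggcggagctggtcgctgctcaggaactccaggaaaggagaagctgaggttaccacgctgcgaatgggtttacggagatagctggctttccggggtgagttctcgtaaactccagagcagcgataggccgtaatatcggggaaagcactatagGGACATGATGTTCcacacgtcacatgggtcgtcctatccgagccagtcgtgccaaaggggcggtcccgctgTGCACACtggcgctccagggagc
The palindrome was found in the 300-base window (250 before to 50 after the start) of Mt1 and Map3k6 among 11 members with an entry, and in 0.475% of 32851 RefSeq windows. TGCACNC was found in Mt1 and Mt2 and in 12.6% of all windows, and TGCGCNC in 4 of the 11 members and in 15.4% of all windows. A match of letters is not a binding site.

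Fasted ARC-305 stood apart within its group in these genes. The mean over the 12 glucocorticoid-responsive genes, as log2(CPM + 0.5) minus the mean of the fed libraries, was 1.25, 0.80, −0.05 and 0.76 in the fasted libraries and between −0.18 and 0.13 in the fed ones. ARC-305 thus lay inside the fed range, and it was also the lowest fasted library for Npy and Lepr. The libraries of the same mouse had the lowest mean of the fasted libraries in each of the other nuclei too: −0.02 in DMH, where the fed libraries ranged from −0.38 to 0.66, 0.32 in PVN, above the fed range of −0.12 to 0.14, and 0.28 in VMH, above the fed range of −0.16 to 0.25. In the 2 gene groups described next, ARC-305 lay among the other fasted libraries, but this did not hold in every other nucleus. For the cold-inducible genes the same mouse had the lowest fasted mean in DMH (0.17) and VMH (0.73), though not in PVN (0.58). For the cholesterol genes its mean was the least lowered of the fasted libraries in PVN (−0.09), though not in DMH (−0.21) or VMH (−0.35). The low place of ARC-305 in the glucocorticoid-responsive genes was noticed after the values were seen.

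**Figure D2:**
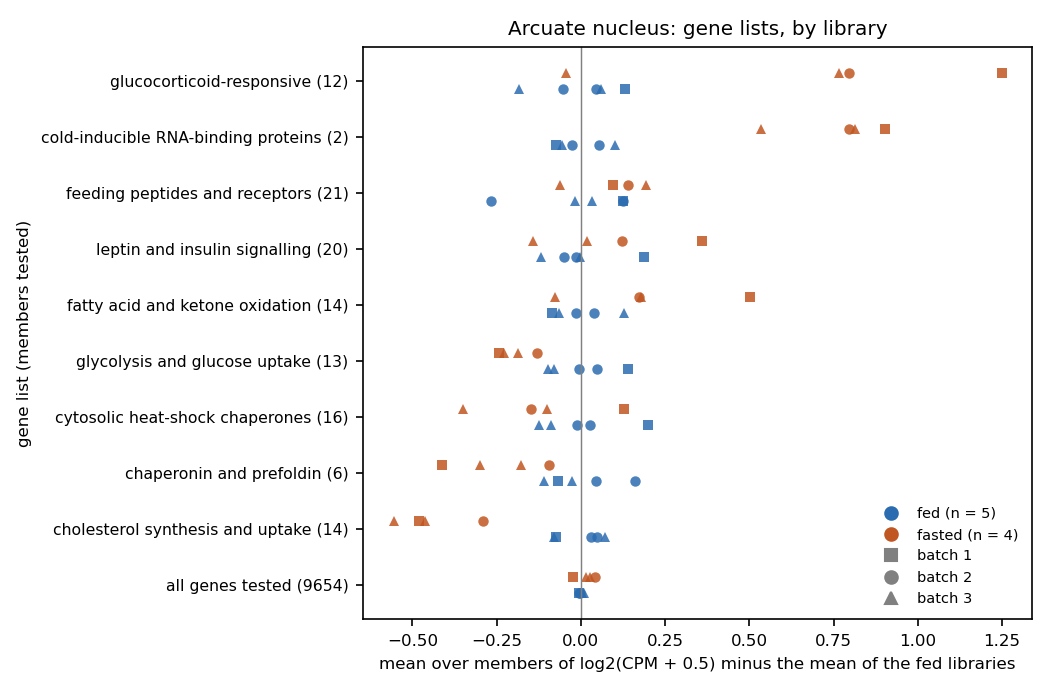
Mean over the members of each gene list (vertical axis, number of genes tested in brackets) of log2(CPM + 0.5) minus the mean of the fed libraries (horizontal axis), for 4 fasted (orange) and 5 fed (blue) ARC libraries, with the point shape giving the batch. Fasted and fed libraries are apart for cholesterol synthesis, glycolysis and the cold-inducible genes. In the glucocorticoid-responsive list 3 fasted libraries lie at 0.76 or above and ARC-305 lies at −0.05.

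Cold-inducible RNA-binding proteins, which are made more when cells cool, were higher in the fasted ARC without passing the threshold. Rbm3 was at 59.0, 49.4, 55.3 and 48.7 CPM in fasted and at 27.8, 20.2, 29.9, 36.5 and 29.7 CPM in fed libraries, with no overlap (log2 difference 0.85 ± 0.22 SE, adjusted p = 0.262). Cirbp was at 94.6, 97.0, 89.1 and 68.4 CPM in fasted and at 51.1, 75.0, 56.8, 49.8 and 48.9 CPM in fed libraries, where ARC-311 lay below fed ARC-125 (0.68 ± 0.18 SE, adjusted p = 0.254). The mean of both genes was 0.90, 0.79, 0.81 and 0.53 above the fed mean in the fasted libraries and no more than 0.10 above it in any fed one.

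Genes of cholesterol synthesis and uptake were lower as a group. Of 14 tested, 12 had a lower value in the fasted ARC, where 48.3% of all genes did. The median log2 fold change was −0.37 beside 0.016 over all genes, and it was −0.34, −0.36 and −0.55 within the 3 batches and −0.41 without both batch 1 libraries. The threshold was passed by 1 gene, where 0.0725% of all genes were called lower. In all, 5 were under an unadjusted p of 0.05 (limma) in this direction, where 3.71% of all genes were. The mean over the 14 genes was 0.48, 0.29, 0.46 and 0.56 below the fed mean in the fasted libraries and no more than 0.08 below it in any fed one.

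Hmgcs1 (chr13:119690379-119708260, + strand) encodes the cytosolic synthase that makes HMG-CoA, the substrate of the rate-limiting step of the pathway. It was at 76.3, 79.8, 100.98 and 106 CPM in fasted and at 154, 171, 147, 148 and 138 CPM in fed libraries, with no overlap. Its change on the log2 scale was −0.75 ± 0.15 (SE; adjusted p = 0.082), and it passed in 2 of 9 fits with 1 library left out (adjusted p = 0.361 without fasted ARC-100). Insig1, whose product holds the sterol-sensing complex in the endoplasmic reticulum, was at 16.1, 31.7, 54.2 and 37.4 CPM in fasted and at 60.3, 50.7, 48.6, 70.9 and 66.1 CPM in fed libraries (log2 difference −0.91 ± 0.24 SE, adjusted p = 0.254). The late synthesis enzyme genes Nsdhl (−0.88 ± 0.35 SE, adjusted p = 0.546) and Lss (−0.54 ± 0.24 SE, adjusted p = 0.574) were also among the 5, and without fasted ARC-311 the difference of Nsdhl was −0.52. The groups overlapped in Insig1, Nsdhl and Lss.

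The Hmgcs1 promoter is printed because sterol-regulated genes are switched through sterol regulatory elements, whose core CACCCCAC is in capitals. The letters are the 250 bases before the RefSeq start at chr13:119690101-119690350 (GRCm38.p6, + strand, 5′ to 3′).
Hmgcs1: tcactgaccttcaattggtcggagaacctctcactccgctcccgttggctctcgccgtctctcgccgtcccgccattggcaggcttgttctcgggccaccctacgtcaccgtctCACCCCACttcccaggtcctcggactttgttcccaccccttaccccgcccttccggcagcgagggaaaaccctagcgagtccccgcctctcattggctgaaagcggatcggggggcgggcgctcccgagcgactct
The core begins 136 bases before the start. It was found, on either strand, in 1 of 11 members with a RefSeq window and in 2.87% of all 32851 windows.

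Protein-folding genes held both of the clearest falls. Hsph1 (chr5:149614287-149636376, − strand) encodes HSP110, a partner that recharges HSP70. It was at 615, 721, 680 and 892 CPM in fasted and at 1099, 1200, 1533, 1084 and 1145 CPM in fed libraries, with no overlap. On the log2 scale it changed by −0.71 ± 0.10 (SE; adjusted p = 0.0049), −0.84, −0.91 and −0.52 within the batches, and it passed in 8 of 9 fits with 1 library left out (adjusted p = 0.177 without fasted ARC-100). Cct7 (chr6:85451514-85468475, + strand) encodes a subunit of the ring-shaped chaperonin that folds actin and tubulin. It was at 186, 212, 169 and 197 CPM in fasted and at 309, 325, 419, 284 and 273 CPM in fed libraries, again with no overlap (−0.69 ± 0.11 SE, adjusted p = 0.027). It passed in 7 of 9 such fits (adjusted p = 0.269 without fasted ARC-100), and it overlaps Pradc1 on the other strand.

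Among chaperone genes no other passed the threshold, where 0.0725% of all genes were called lower. Of 16 cytosolic heat-shock chaperone genes tested, 7 were higher and 9 lower (median −0.09, and 0.11 without fasted ARC-100), of 6 chaperonin and prefoldin genes 2 were higher and 4 lower (median −0.18, and −0.12 without fasted ARC-305), and of 3 mitochondrial chaperone genes 1 was higher and 2 lower (median −0.08, from −0.13 without fasted ARC-305 to −0.02 without fed ARC-111). Hspa1a, the stress-induced HSP70 gene, was at 5.17, 6.08, 1.69 and 1.61 CPM in fasted and at 11.4, 10.8, 11.2, 16.6 and 8.42 CPM in fed libraries, low values without overlap (log2 difference −1.66 ± 0.47 SE, adjusted p = 0.343). Tcp1, another chaperonin subunit gene, was at 156, 258, 239 and 272 CPM in fasted and at 273 to 382 CPM in fed libraries (−0.43 ± 0.14 SE, adjusted p = 0.424), and the difference was −0.26 without fasted ARC-86 or without fed ARC-111. Fkbp4, a co-chaperone gene of steroid receptors, differed by −0.31 ± 0.12 (SE, adjusted p = 0.539) and Hspe1, the mitochondrial HSP10 gene, by −0.48 ± 0.19 (SE, adjusted p = 0.543), the latter by −0.31 without fasted ARC-86 or without fed ARC-111. Cct2, a subunit of the same ring as Cct7 that was named after its values were seen, differed by 0.01 ± 0.12 (SE, adjusted p = 0.982). Of 9 genes of the endoplasmic reticulum stress response, none was under an unadjusted p of 0.05 (limma), 6 were higher and 3 lower.

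Heat shock elements, arrays of GAA and TTC blocks, are shown in capitals (GAA, TTC and GAA with 2 free bases, NN, between them, or TTC, GAA and TTC spaced alike; overlapping matches are merged) for Hspe1, where they lie before the start, and for Hsph1, where the match lies just after it and 30 bases are printed. The Hspe1 stretch is chr1:55087898-55088147 (+ strand) and the Hsph1 stretch chr5:149636280-149636309 (− strand), both GRCm38.p6 and 5′ to 3′.
Hspe1: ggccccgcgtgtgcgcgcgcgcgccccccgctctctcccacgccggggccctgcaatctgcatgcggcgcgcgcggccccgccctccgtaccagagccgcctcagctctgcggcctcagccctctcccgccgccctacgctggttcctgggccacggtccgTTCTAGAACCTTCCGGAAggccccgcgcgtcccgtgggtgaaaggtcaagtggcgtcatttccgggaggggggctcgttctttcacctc
Hsph1: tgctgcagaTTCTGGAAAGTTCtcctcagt
Such an array was found in 2 of 14 cytosolic heat-shock chaperone genes with a RefSeq window (Hsph1 and Dnajb6), in 1 of 3 mitochondrial chaperone genes, in 0 of 6 chaperonin and prefoldin genes, and in 0.603% of all windows.

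**Figure D3:**
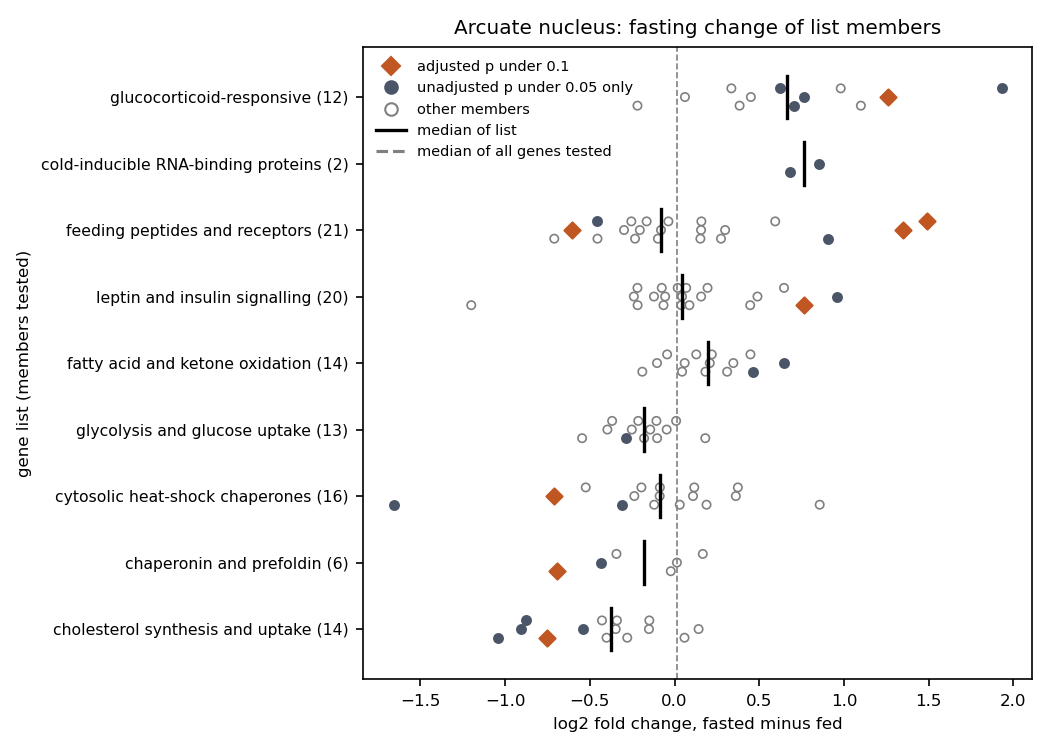
Log2 fold change between fasted and fed ARC libraries (horizontal axis) of every tested member of 9 gene lists (vertical axis, number tested in brackets). Orange diamonds passed an adjusted p of 0.1, filled circles an unadjusted p of 0.05 only, open circles neither, the black bar is the median of a list and the dashed line the median of all genes tested. The glucocorticoid-responsive genes sit around a median of 0.66 and the cholesterol genes around −0.37, while the feeding and leptin lists hold a few large changes around medians near 0.

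The other genes that fell belong to no single group. Ptn encodes pleiotrophin, a heparin-binding growth factor. It was at 188, 188, 159 and 177 CPM in fasted and at 376, 261, 238, 285 and 215 CPM in fed libraries, with no overlap (log2 fold change −0.61 ± 0.13 SE, adjusted p = 0.087). Bhlhe40 encodes a transcriptional repressor that also acts in the circadian clock. It was at 44.1, 51.2, 81.2 and 45.5 CPM in fasted and at 126, 70.6, 97.8, 109 and 110 CPM in fed libraries, where only ARC-305 lay above the lowest fed library (−0.95 ± 0.20 SE, adjusted p = 0.087). Without the least deep fasted and fed libraries, ARC-311 and ARC-111, its log2 fold change was −0.56. Bhlhe40 was the 1 called gene of 12 circadian clock genes tested, where 0.0725% of all genes were called lower. Of the 12, 5 were higher and 7 lower (median −0.08, and 0.04 without fasted ARC-305). A gene listed as ENSMUSG00000036279, which the annotation used here does not name, was at 7.22, 20.02, 9.59 and 34.9 CPM in fasted and at 15.1, 57.4, 49.1, 98.4 and 52.8 CPM in fed libraries (−1.56 ± 0.34 SE, adjusted p = 0.098). With 1 library left out, Ptn passed in 1 of 9 fits (adjusted p = 0.447 without fed ARC-308), Bhlhe40 in 2 (0.425 without fed ARC-111) and ENSMUSG00000036279 in 0 (0.490 without fed ARC-308).

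In energy metabolism no gene passed the threshold. Glycolysis and glucose uptake genes were lower in 11 of 13 cases, with a median of −0.18, and the mean over the list was 0.24, 0.13, 0.19 and 0.23 below the fed mean in the fasted libraries and no more than 0.10 below it in any fed one. Their changes were small: Ldhb, a lactate dehydrogenase subunit gene, differed by −0.29 ± 0.11 (SE, adjusted p = 0.513) and Pgk1, phosphoglycerate kinase, by −0.37 ± 0.18 (SE, adjusted p = 0.615), the latter without overlap of the groups. Genes of fatty acid and ketone oxidation were higher in 11 of 14 cases (median 0.20), but in only 7 of 14 without both batch 1 libraries (median 0.03). The members under an unadjusted p of 0.05 (limma) were both higher, where 4.39% of all genes were. They were the coactivator gene Ppargc1a (0.65 ± 0.28 SE, adjusted p = 0.574) and Pdk2, which restrains pyruvate oxidation (0.46 ± 0.21 SE, adjusted p = 0.597). Without fasted ARC-86 or without fed ARC-111 the difference of Ppargc1a was 0.14, that of Pdk2 0.29 and that of Bnip3, described next, 0.46. Fatty acid synthesis genes were higher in 6 of 9 cases (median 0.07, from 0.00 without fed ARC-111 to 0.19 without fasted ARC-311), and the elongase gene Elovl5 was at 87.3 to 102 CPM in fasted and 109 to 141 CPM in fed libraries (−0.39 ± 0.14 SE, adjusted p = 0.513). Autophagy and lysosome genes were higher in 10 of 17 cases (median 0.01, and −0.03 without fed ARC-125). Bnip3, a mitophagy receptor gene, was at 78.4, 63.0, 51.3 and 60.8 CPM in fasted and at 20.3, 38.8, 37.4, 43.3 and 48.0 CPM in fed libraries (0.80 ± 0.24 SE, adjusted p = 0.407), and Tfe3, which encodes a regulator of lysosome genes, differed by 0.62 ± 0.23 (SE, adjusted p = 0.518). The third member under an unadjusted p of 0.05 (limma) went the other way, where 4.39% of all genes were higher and 3.71% lower at this p. Atg9a, which encodes a membrane protein of forming autophagosomes, differed by −0.59 ± 0.22 (SE, adjusted p = 0.527), and by −0.29 without fasted ARC-86 or without fed ARC-111.

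None of the transmitter receptor subunits tested passed the threshold. Glutamate receptor genes were higher in 4 of 11 cases (median −0.06, from −0.13 without fasted ARC-86 to −0.02 without fed ARC-125) and GABA and glycine receptor genes in 8 of 12 (median 0.03, and −0.02 without fed ARC-313). Under an unadjusted p of 0.05 (limma) was 1 glutamate receptor gene, a higher one. Of the GABA receptor genes 3 were, 2 higher, where 4.39% of all genes were, and 1 lower, where 3.71% were. Gabre was at 468, 407, 297 and 436 CPM in fasted and at 290, 339, 243, 331 and 344 CPM in fed libraries (0.36 ± 0.14 SE, adjusted p = 0.531). Gabra5 differed by 0.46 ± 0.18 (SE, adjusted p = 0.539) and Gabra3 by −0.36 ± 0.15 (SE, adjusted p = 0.571), and the groups overlapped in all 3.

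The 10 genes next in order of p, none of them past the threshold, had adjusted p values from 0.110 to 0.237. Ghr, the growth hormone receptor gene, was at 242, 192, 157 and 250 CPM in fasted and at 139, 141, 106, 143 and 112 CPM in fed libraries, with no overlap (log2 difference 0.68 ± 0.15 SE, adjusted p = 0.114). Omg, a myelin glycoprotein gene that lies within Nf1 on the other strand (0.60 ± 0.13 SE), the nuclear import receptor gene Ipo13 (0.92 ± 0.21 SE), the adenine nucleotide carrier gene Slc25a4 (0.43 ± 0.10 SE) and the leucine-rich repeat gene Lrrn3 (0.76 ± 0.18 SE) were also higher. Pop5, an RNase P subunit gene that overlaps Rnf10 (−1.05 ± 0.23 SE), the mitochondrial iron carrier gene Slc25a37 (−1.36 ± 0.30 SE), the cell adhesion gene Chl1 (−0.44 ± 0.11 SE) and Wdr3 (−1.07 ± 0.26 SE) were lower. Stra6, a retinol transporter gene, was listed at 0 in 3 fasted libraries and at 0.179 CPM in ARC-100, and was at 1.27 to 7.28 CPM in fed libraries, which at these depths rests on few reads. Without fasted ARC-305, Ghr (adjusted p = 0.055), Slc25a4 (0.064) and Lrrn3 (0.086) passed the threshold. Groups did not overlap in Pop5, Slc25a37, Omg, Ipo13, Ghr, Stra6 and Wdr3.

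The question whether these changes are particular to the ARC was put to the difference between the ARC change and the mean change of DMH, PVN and VMH. No gene of 9654 passed an adjusted p of 0.1 in this limma test (smallest 0.627), and 485 (5.02%) were under an unadjusted p of 0.05. Of the 17 genes, 12 had the direction of the ARC change in all 3 other nuclei, and in 15 the ARC change was larger than that of any other nucleus, as a choice by the ARC result favours. The change of Lepr was 0.00, 0.30 and −0.16 in DMH, PVN and VMH, and that of Npy, at low levels there, −0.09, 0.54 and 0.52. The ARC change of Lepr exceeded the mean of the others by 1.44 ± 0.50 (SE) and that of Foxo1 by 0.58 ± 0.24 (SE). By contrast Hsph1 differed by −0.80, −0.65 and −0.63 in DMH, PVN and VMH, close to its ARC change, and the ARC change departed from their mean by −0.03 ± 0.12 (SE). Mt2 was also higher in all nuclei (0.74, 1.20 and 0.75). The glucocorticoid-responsive, cholesterol and cold-inducible groups had medians of the same sign elsewhere, though the difference from ARC was not tested for groups. In DMH, PVN and VMH the median of the glucocorticoid-responsive genes was 0.18, 0.78 and 0.52, that of the cholesterol genes −0.28, −0.28 and −0.19, and that of the cold-inducible genes 0.55, 0.64 and 1.00. The median of the glycolysis genes was 0.05, −0.01 and 0.00. The smallest p values of the test belonged to Tubb3, a neuronal tubulin gene (−0.59 in ARC against 0.21, 0.12 and −0.23), Gbp9 (−2.17 against 0.68, 0.11 and 0.85) and Nt5dc3 (−0.62 against 0.56, 0.31 and 0.06), and without fed ARC-308 Tubb3 passed the threshold (adjusted p = 0.053).

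**Figure D4:**
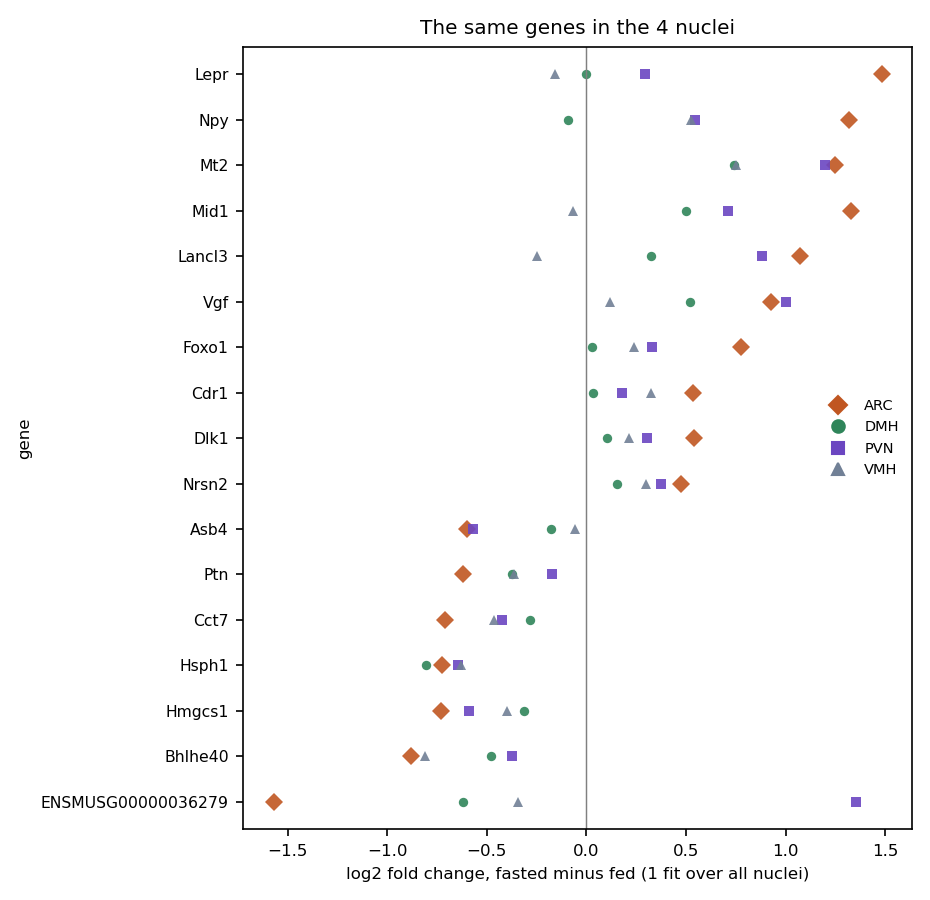
Log2 fold change between fasted and fed libraries (horizontal axis) of the 17 genes past the threshold in ARC (vertical axis), in 1 fit over all 41 libraries, for ARC (orange diamonds), DMH (circles), PVN (squares) and VMH (triangles). The genes were chosen on the ARC result. Hsph1 lies between −0.80 and −0.63 in all nuclei, while Lepr lies far to the right in ARC and between −0.16 and 0.30 elsewhere.

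No marker gene of other cells in the captured tissue passed the threshold, but several of these lists were off centre. Of 9 endothelial genes tested, 8 were lower in the fasted ARC (median −0.53). The median was −0.39 without both batch 1 libraries and ran from −0.82 without fasted ARC-100 to −0.39 without fasted ARC-86. Their summed level was 69.9 to 110 CPM in fasted and 119 to 152 CPM in fed libraries, with no overlap, and Flt1, a receptor of vascular endothelial growth factor, differed by −0.53 ± 0.22 (SE, adjusted p = 0.559). Of 5 genes of pericytes and fibroblasts 4 were lower (median −0.50, −0.58 without both batch 1 libraries, −0.64 without fasted ARC-100 and −0.32 without fasted ARC-311), and their summed level was 29.0 to 56.9 CPM in fasted and 30.8 to 57.4 CPM in fed libraries. Of 9 microglial genes 8 were lower (median −0.22), and this median ranged from −0.39 without fasted ARC-86 to −0.06 without fed ARC-308 and was −0.04 with depth as a covariate. Their summed level was 124.7 to 177 CPM in fasted and 150 to 250 CPM in fed libraries. The summed endothelial level was lower in the fasted ARC, as were the cholesterol genes, Hsph1, Cct7 and the other genes that fell. Its part in those falls was not tested. In DMH, PVN and VMH the median of the endothelial genes was −0.05, 0.12 and 0.03. The summed levels of astrocyte genes (483 to 588 CPM in fasted, 457 to 568 CPM in fed libraries), oligodendrocyte genes (355 to 757 and 303 to 869 CPM) and genes of tanycytes and ependyma (95.1 to 241 and 93.1 to 181 CPM) overlapped between the states. The 3 choroid plexus genes had a median of 0.55, which was −0.05 without fasted ARC-311, and summed to 31.8 to 59.3 CPM in fasted and 20.1 to 35.1 CPM in fed libraries. Blood genes summed to at most 16.2 CPM in any ARC library.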

How the data were processed

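RNA from laser-captured nuclei was sequenced, and the authors deposited 1 table of CPM values (read counts scaled to a common library depth) for 10127 genes. Per the submitters' processing notes, CASAVA 1.7, TopHat2 2.0.11, Cufflinks 2.2.1, edgeR, limma and the build GRCm38 were used, while the tool behind the gene-level counting is not given in the sources used here. The table gives 41 of the 43 samples, and 2 of its columns match no label and were not used. Both of these are headed as ARC (mice 85 and 92), while the PVN samples labelled with these mouse numbers have no column, so a misnamed label or column is possible, and ARC has 1 batch 1 library in each state here. Gene identifiers between ENSMUSG00000000861 and ENSMUSG00000028747 (6725 annotated genes, among them Agrp and Pomc) and Snord116, the deleted gene, were not analysed here. Symbols were found for 9891 genes.

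Genes with at least 1 CPM in at least 4 of the 9 ARC libraries were tested (9654, with 473 left out) as log2(CPM + 0.5), with batch as a covariate, by limma 3.58.1 in R 4.3.3 (eBayes with a trend, Benjamini-Hochberg adjustment, threshold 0.1). A fold change on this scale understates the change of low genes. The ARC change was tested against the mean change of the other nuclei in 1 fit of all 41 libraries. Tables were made with Python 3.11.15 and pandas 2.3.3. The fits were also run on simulated data, whose outcome is not reported here and is no check on the genes called. Depth was read from the step between low CPM values. Of these, 97.8 to 98.7% were counted as whole multiples of the step, under a tolerance that is not given here. Since 57 genes had values under 0.01 CPM, whole reads were not recovered and no count test was run. Nothing in the labels says how replicates were raised, so p values measure the spread between these mice.

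The genes named are all that passed, the next 10 by p, up to 4 members of each list with the smallest p and any member that passed, markers, and the 3 leading genes of the test against other nuclei, and some of the list members so chosen are not reported here. Members, lists and markers were chosen with earlier results of these data known. Promoters come from RefSeq on GRCm38.p6, where 14 of the 17 genes that passed had an entry. The alternatives were other pseudocounts, filters, scalings, covariates and variance models, and leaving out libraries. A stricter threshold and leaving out the least deep libraries were added after seeing the data. The title numbers were taken as mouse numbers, and the same mice gave several nuclei: deviations of a mouse's ARC and other nuclei from their group means correlated at 0.00661 to 0.229.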

Additional observations from a re-analysis of the deposited data

Results flagged for a closer look

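In 34 groups of 4 or 5 libraries examined for 1 value far from the rest, 3 stood out, where about 1 in 20 groups does so by chance (1.7 here). Hsph1 was at 1533.1 CPM in fed ARC-127, above 1083.9 to 1200.1 CPM in the other fed libraries. Nrsn2 was at 1544.9 CPM in fasted ARC-86, above 783.1 to 859.72 CPM in the other fasted libraries, and at 1208.9 CPM in fed ARC-111, above 521.51 to 616.94 CPM in the other fed libraries. ARC-86 and ARC-111 are the batch 1 libraries of ARC, and the part of batch in these values was not tested beyond its place as a covariate in the fit.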

How the results depend on the processing

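In the main fit 17 genes passed, and the counts that follow are whole counts under each setting. The count was 8 with a pseudocount of 0.25, 5 without a filter on low values, 5 in the fit of all nuclei and 5 without the batch 1 libraries. It was 3 without the least deep fasted and fed libraries (added after seeing the data) and 4 at an adjusted p under 0.05 (also added). Without the batch covariate 0 passed in limma (604 genes at an unadjusted p under 0.05, smallest adjusted p 0.297), and without a trend in eBayes 0 passed (660 and 0.1496). Leaving out the least deep libraries also made some log2 differences of named genes smaller, among them Insig1 (−0.49), Klf9 (0.44) and Ghsr (0.18). Leaving out 1 library gave between 3 and 23 genes. The other alternatives gave 14 to 24. Over the alternatives other than leaving out 1 library, the 17 genes kept their call in 153 fits of a gene and lost it in 102, and with 1 library left out in 55 and 98, with the direction unchanged in all of these. The causes were not tested. In the test of the ARC change against the other nuclei, 0 genes passed by limma (485 at an unadjusted p under 0.05), and leaving out 1 ARC library gave 0 to 1. With the mouse number as replicate block, 0 genes passed (481 at an unadjusted p under 0.05). Fasted and fed ARC libraries came from different mice, so no paired fit within ARC was possible. With 2.37 to 6.29 M reads per library, values of a few CPM rest on few reads.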

Other observations

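Some further gene groups were chosen after their values were seen and are given as a description only. Imprinted genes, of interest because the mice carry a deletion in an imprinted region, numbered 22 tested, 11 higher and 11 lower in the fasted ARC (median log2 fold change 0.00). Without both batch 1 libraries 7 were higher and 15 lower (median −0.06), so that split rests on them, and without fasted ARC-311 the median was 0.08. Dlk1 and Asb4 were the members past the threshold, where 0.104% of all genes were called higher and 0.0725% lower. Magel2, a neighbour of the deleted cluster, was at 178, 122, 72.2 and 95.8 CPM in fasted and at 108, 63.4, 52.2, 69.5 and 83.4 CPM in fed libraries, with overlap (log2 difference 0.56 ± 0.19 SE, adjusted p = 0.435 by limma). Ndn, from the same region, differed by 0.10 ± 0.08 (SE, adjusted p = 0.753 by limma).

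A list of 12 tubulin and gamma-tubulin complex genes had 9 lower members (median −0.28), against 48.3% of all genes, but 7 of 12 without both batch 1 libraries (median −0.21). Tuba1a was at 351, 444, 421 and 390 CPM in fasted and at 455, 538, 735, 475 and 507 CPM in fed libraries, without overlap (−0.37 ± 0.10 SE, adjusted p = 0.306 by limma). Cytosolic ribosomal protein genes were higher in 46 of 60 cases by a small amount (median 0.12, 0.07 without fasted ARC-311 and 0.06 with depth as a covariate). Respiratory chain genes were higher in 23 of 44 cases (median 0.03, from −0.01 without fed ARC-125 to 0.08 without fed ARC-127). Proteasome genes were higher in 6 of 15 cases (median −0.11, −0.03 without fasted ARC-311 and −0.01 with depth as a covariate). Of 8 genes of the growth hormone axis 7 were higher (median 0.60, and 0.79, 0.28 and 0.19 within batches 1, 2 and 3). Their mean, relative to the fed mean, was −0.32 in fasted ARC-311, below every fed library. It was 0.14 in fasted ARC-305, within the fed range of −0.27 to 0.29. Cish, a cytokine signal inhibitor gene, was the lower one (−1.86 ± 0.67 SE, adjusted p = 0.477 by limma), at low values. None of the tubulin and gamma-tubulin complex, ribosomal, respiratory chain, proteasome and growth hormone axis genes passed the threshold.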
